A study of Mus musculus with 12 samples.

Results

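Macrophages grown with GM-CSF and then activated with bacterial lipopolysaccharide (LPS) were set against dendritic cells from GM-CSF marrow culture that had received no LPS, to measure how near activated macrophages come to the program of dendritic cells that matured without a stimulus. The comparison held 6 of the 12 arrays of the series, chosen by their titles: 3 of LPS-stimulated macrophages (GM-MF) and 3 of unstimulated dendritic cells (GM-DC). All cells came from leg bone marrow of C57B/6 mice, kept for 6 days with recombinant GM-CSF at 20 ng/ml, and LPS was given at 10 ng/ml for 4 hours. The 3 arrays of unstimulated GM-MF served to show where the macrophages stood before LPS, and the 3 of LPS-stimulated GM-DC entered the shared estimate of spread and 1 measure of distance. The labels do not state how GM-MF and GM-DC were separated, whether marrow was pooled, or whether the 3 replicates of a group came from different mice or cultures, so p-values measure the spread between these samples, which may be technical.

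GM-CSF, a growth factor for myeloid cells, drives marrow progenitors into both dendritic cells and macrophages in the same dish. Dendritic cells take up antigen and, on maturing, lose uptake receptors, gain the chemokine receptor CCR7 that guides them to lymph nodes, and display costimulatory ligands such as CD80 and CD86 to T cells. Macrophages mainly engulf, digest and secrete. LPS, the outer membrane glycolipid of Gram-negative bacteria, is sensed by Toll-like receptor 4, which switches on NF-kB target genes and, through interferon beta, interferon-stimulated genes.

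RNA was measured on Affymetrix Mouse Gene 1.0 arrays, and the deposited log2 expression values covered 19938 genes after the choice of 1 probe set per gene. Array medians lay between 4.41 and 4.54, and the correlation across genes between arrays of a group was 0.993 to 0.996. A difference below is the mean log2 value of LPS-stimulated GM-MF minus that of unstimulated GM-DC, given ± its standard error from limma, so a positive difference means higher in LPS-stimulated GM-MF. A gene passed the test at a Benjamini-Hochberg adjusted p under 0.05 over all genes. Where the 95% interval of a difference lay between -1 and 1, the groups were within 2-fold of each other. No background call was available, so a value near or under the array medians is not shown to be above background, and a fold against it is a ratio of signals.

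The labelled cell types carried most of their defining markers. Flt3, the receptor for the dendritic cell growth factor FLT3 ligand, read 4.33, 3.88 and 3.99 in LPS-stimulated GM-MF against 8.69, 8.31 and 8.79 in unstimulated GM-DC. Zbtb46, a transcription factor of conventional dendritic cells, averaged 5.35 in LPS-stimulated GM-MF and 7.06 in unstimulated GM-DC. The peptidase gene Dpp4 averaged 4.63 in LPS-stimulated GM-MF and 8.86 in unstimulated GM-DC. Csf1r, the macrophage colony-stimulating factor receptor, read 10.46, 10.11 and 10.37 in LPS-stimulated GM-MF against 6.70, 6.72 and 6.39 in unstimulated GM-DC. These 4 markers separated the groups with no overlap, as did 21.8% of all genes on the higher and 26.7% on the lower side. Itgax, the CD11c integrin chain often used as a dendritic cell marker, went the other way: it read 10.77, 10.62 and 10.58 in LPS-stimulated GM-MF against 9.02, 8.98 and 8.05 in unstimulated GM-DC, a difference of 1.97 ± 0.27 (adjusted p = 1.82e-05). Btla, another dendritic cell marker, averaged 4.57 in LPS-stimulated GM-MF and 4.47 in unstimulated GM-DC, near the array medians, and did not pass the test (adjusted p = 0.559).

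The interferon and NF-kB programs run through short DNA elements near gene starts, and the promoters of 4 genes that the results below turn on are shown for that reason. They were chosen because they hold a match. Each is the window of 250 bases before to 50 bases after the start, from RefSeq on GRCm38.p6, 5′ to 3′ on the gene's strand. Capitals mark a match on either strand to the kappaB motif bound by NF-kB (GGG, any 2 bases, TTTCC) or to the interferon-stimulated response element, ISRE (GAAA, any 2 bases, GAAA). The Il6 window, of the cytokine interleukin 6, lies at chr5:30012864-30013163 on the plus strand, and the Ifit3 window, of an antiviral effector, at chr19:34583279-34583578 on the plus strand. The Cxcl10 window, of an interferon-induced chemokine, lies at chr5:92348840-92349139 on the minus strand, and that of Stat4, a transcription factor downstream of interleukin 12 and interferon receptors, at chr1:52007990-52008289 on the plus strand.
Il6: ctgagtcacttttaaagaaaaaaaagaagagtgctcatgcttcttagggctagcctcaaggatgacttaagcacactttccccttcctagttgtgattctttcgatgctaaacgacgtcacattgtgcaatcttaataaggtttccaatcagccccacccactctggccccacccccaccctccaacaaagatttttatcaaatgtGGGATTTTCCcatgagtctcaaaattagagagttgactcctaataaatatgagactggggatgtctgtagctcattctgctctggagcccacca
Ifit3: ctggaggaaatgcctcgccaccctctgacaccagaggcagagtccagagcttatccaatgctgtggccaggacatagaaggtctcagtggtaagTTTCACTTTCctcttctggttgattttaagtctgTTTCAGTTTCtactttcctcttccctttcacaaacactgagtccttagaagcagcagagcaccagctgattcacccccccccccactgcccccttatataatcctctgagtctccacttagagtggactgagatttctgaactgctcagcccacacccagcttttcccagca
Cxcl10: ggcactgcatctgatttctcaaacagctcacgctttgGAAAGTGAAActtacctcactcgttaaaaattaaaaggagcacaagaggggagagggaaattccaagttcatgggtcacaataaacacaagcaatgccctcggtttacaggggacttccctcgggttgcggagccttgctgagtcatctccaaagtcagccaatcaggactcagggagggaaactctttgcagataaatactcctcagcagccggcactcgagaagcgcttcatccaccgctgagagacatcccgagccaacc
Stat4: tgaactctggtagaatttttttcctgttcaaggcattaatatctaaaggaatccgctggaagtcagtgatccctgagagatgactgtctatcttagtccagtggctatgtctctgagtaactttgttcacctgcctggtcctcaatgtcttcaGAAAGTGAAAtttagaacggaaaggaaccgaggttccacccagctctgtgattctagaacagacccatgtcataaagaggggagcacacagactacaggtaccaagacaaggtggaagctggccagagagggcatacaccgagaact

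Il6 held 1 kappaB match that began 44 bases before the start. Ifit3 held 2 ISRE matches, beginning 156 and 122 bases before the start, and Cxcl10 held 1, at 213 bases before it. The second of 2 Stat4 starts in RefSeq, shown here, held an ISRE match of the same letters as Cxcl10, GAAAGTGAAA. Yet Stat4 had the lowest difference of the genes named by rule, and Cxcl10 was 86.5-fold higher in LPS-stimulated GM-MF. The first Stat4 start and the windows of Ifit2, Il12b, Cd80, Fscn1, Flt3, Il1a and Ramp3 held no match to either motif and are not shown. Over the 15614 measured genes with a window, 1.83% held the kappaB motif and 3.89% the ISRE. Among 28 interferon-stimulated genes, 20 had a window and 10 of these held the ISRE, while 5 of 13 chemokine windows (38.5%), 3 of 16 cytokine windows (18.8%) and 5 of 22 windows of the NF-kB list (22.7%) held the kappaB motif. Of the 19 windows of dendritic cell maturation genes, 0 held the kappaB motif and 2 (10.5%) the ISRE. Only 1 form of each motif was searched, in windows of 300 bases. A list without a match is thus not shown to lack such sites. A match is a run of letters and was not tested as a binding site.

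Across all genes LPS did not bring the macrophages nearer to unstimulated GM-DC. Between LPS-stimulated GM-MF and unstimulated GM-DC, 7710 of 19938 genes (38.7%) passed the test, 3220 higher (16.2%) and 4490 lower (22.5%), with a median difference of 0.01 over all genes. Before LPS, unstimulated GM-MF differed from the same GM-DC arrays in 6827 genes (34.2%), 3234 higher (16.2%) and 3593 lower (18.0%). With a difference of at least 2-fold asked as well, 2909 genes (14.6%) separated LPS-stimulated GM-MF from unstimulated GM-DC and 2533 (12.7%) separated unstimulated GM-MF from it. The groups were within 2-fold at 15682 genes (78.7%) with LPS and 16283 (81.7%) without. These counts include genes not shown to be above background, so the shares are not shares of expressed genes. When only genes with a mean above the table median were tested, 6373 lay within 2-fold with LPS. The balance of higher and lower calls turned with the scaling, at 3954 higher and 3843 lower after cyclic loess and 3549 higher and 4122 lower after median centring. Both comparisons use the same GM-DC arrays, so their counts stand side by side and were not tested against each other.

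The LPS response of GM-MF itself, LPS-stimulated minus unstimulated GM-MF, was smaller: 3461 genes (17.4%) passed the test, 1304 higher (6.54%) and 2157 lower (10.8%), and 633 (3.17%) reached 2-fold. As a single value per array, the root mean square log2 difference over all genes from the mean of the unstimulated GM-DC arrays was 0.987, 0.963 and 1.01 in LPS-stimulated GM-MF, 0.900, 0.894 and 0.909 in unstimulated GM-MF, and 0.390, 0.423 and 0.356 in LPS-stimulated GM-DC. Every LPS-stimulated GM-MF array thus lay farther from unstimulated GM-DC than every unstimulated GM-MF array, by 0.0844 on average. The exact two-sided permutation test over arrays gave p = 0.1, the smallest that 3 against 3 allows, so the design could not pass 0.05. By the median absolute difference in place of the root mean square the gap was 0.018 and the arrays overlapped. Pairs of arrays of the same group lay 0.204 to 0.296 apart, LPS-stimulated and unstimulated GM-MF arrays 0.457 apart in the median over 9 pairs, and LPS-stimulated GM-MF and unstimulated GM-DC arrays 0.993 apart.

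**Figure D1:**
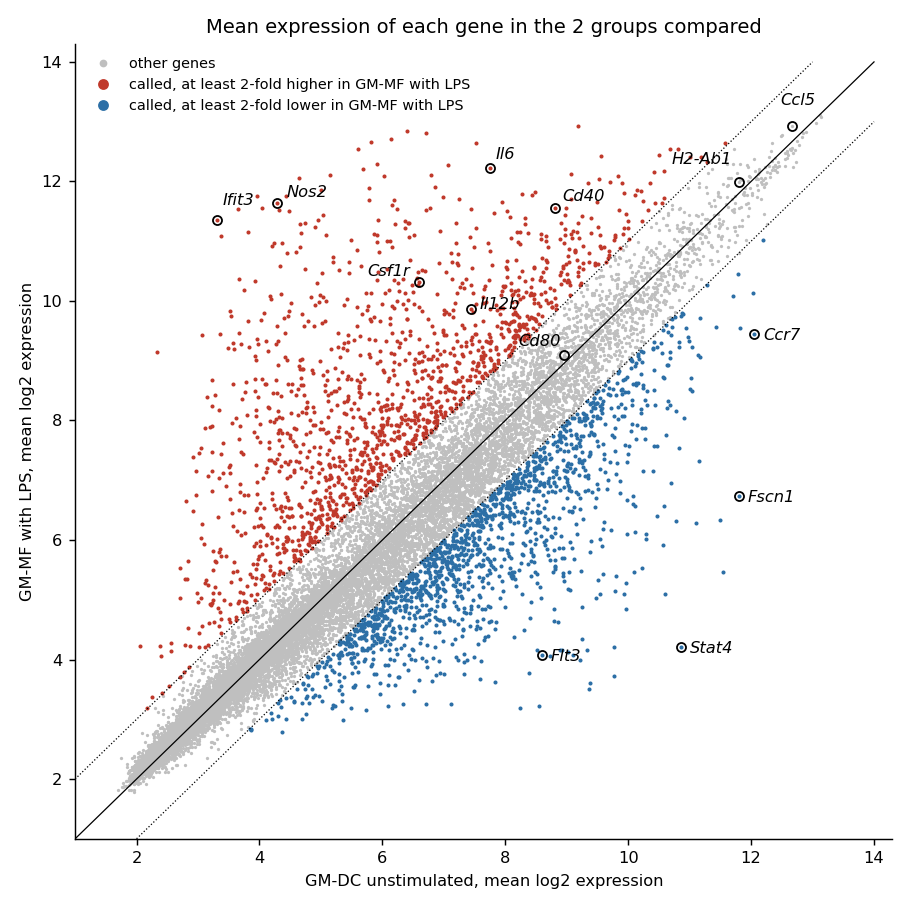
Mean log2 expression of each gene in unstimulated GM-DC (x axis) and LPS-stimulated GM-MF (y axis), n = 3 arrays each, with the line of equality and dotted lines at 2-fold. Coloured points are the 1440 genes that passed the test and were at least 2-fold higher, and the 1469 at least 2-fold lower, in LPS-stimulated GM-MF. Cd80 and Ccl5 lie near the line of equality, while Ifit3 and Nos2 lie far above it and Stat4 far below.

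**Figure D2:**
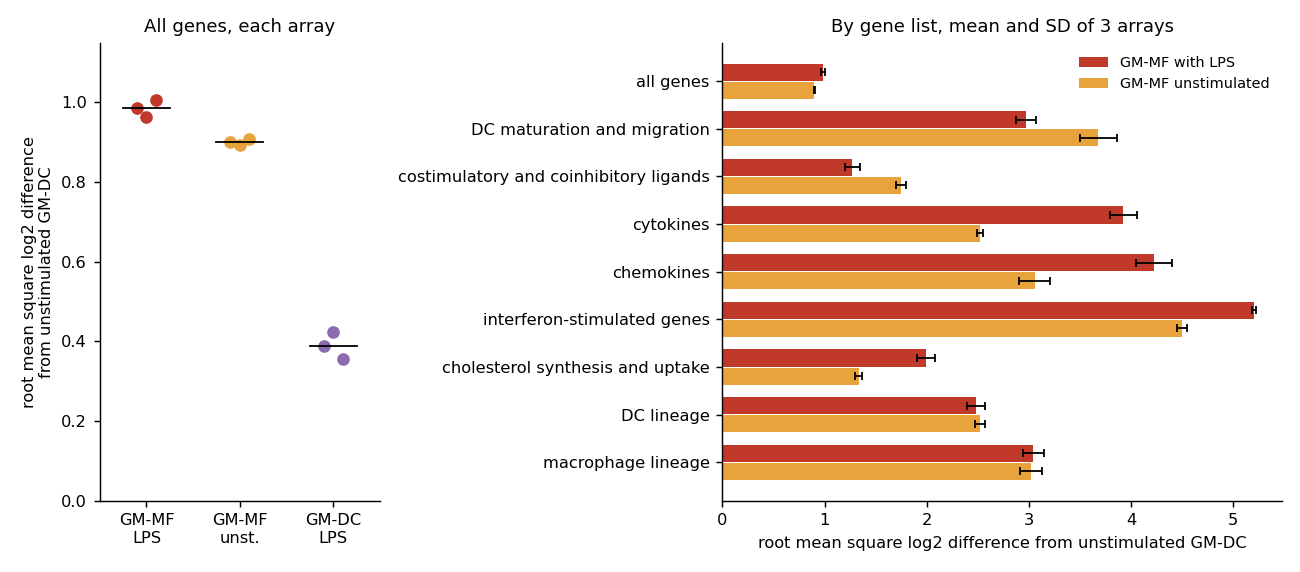
Root mean square log2 difference from the mean of the 3 unstimulated GM-DC arrays. On the left is each array over all genes, with a line at the group mean; on the right are means over the 3 arrays of each GM-MF group by gene list, with bars of 1 SD. The LPS-stimulated GM-MF bar is shorter than the unstimulated one for dendritic cell maturation (2.97 against 3.68) and costimulatory ligands (1.27 against 1.75), and longer for cytokines, chemokines, interferon-stimulated genes and cholesterol synthesis.

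Genes of dendritic cell maturation and migration moved part of the way. Of 28 measured members, 2 stood higher in LPS-stimulated GM-MF than in unstimulated GM-DC, 23 stood lower and 3 failed the test, with a median difference of -2.10. Among all genes, 16.2% stood higher and 22.5% lower. Within GM-MF, LPS raised 15 of the 28 and lowered 1, or 16 and 0 in a paired fit of the GM-MF arrays alone. In the fit without pairs LPS raised 6.54% and lowered 10.8% of all genes. The mean level of the list lay at 7.68 to 7.87 in the LPS-stimulated GM-MF arrays, 6.88 to 7.17 in unstimulated GM-MF and 9.98 to 10.18 in unstimulated GM-DC, so that the LPS-stimulated mean stood 25.2% of the way between the unstimulated macrophages and the dendritic cells. This list was written with earlier results of these data known, and its direction is no independent evidence. In RNA of whole samples, fewer cells that carry a transcript and less of it per cell cannot be told apart.

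Ccr7, the lymph node homing receptor, read 9.39, 10.06 and 8.91 in LPS-stimulated GM-MF, 6.86, 7.62 and 6.49 in unstimulated GM-MF, and 12.10, 12.01 and 12.06 in unstimulated GM-DC. LPS raised it by 2.47 ± 0.26 in GM-MF, and it stayed lower than in GM-DC by a difference of -2.60 ± 0.26, which is 6.06-fold (adjusted p = 8.65e-07). Fscn1, which encodes the actin bundler fascin of mature dendritic cell protrusions, read 6.66, 7.39 and 6.14 in LPS-stimulated GM-MF, 4.37, 5.76 and 4.59 in unstimulated GM-MF and 11.72, 11.64 and 12.03 in unstimulated GM-DC. The remaining gap of Fscn1 was wider than that of Ccr7, at -5.07 ± 0.32 or 33.5-fold (adjusted p = 3.73e-09). Cd83, a surface marker of mature dendritic cells, read 7.37, 7.82 and 7.44 in LPS-stimulated GM-MF, 6.45, 7.09 and 5.93 in unstimulated GM-MF and 10.83, 10.71 and 10.91 in unstimulated GM-DC, a difference of -3.27 ± 0.21 (adjusted p = 5.52e-09). For none of these 3 genes did a macrophage array reach a GM-DC array.

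Cd200, an inhibitory ligand, was the member of the list that came closest after a large rise. It read 9.28, 9.32 and 9.25 in LPS-stimulated GM-MF, 7.31, 7.20 and 7.51 in unstimulated GM-MF and 9.43, 9.45 and 9.71 in unstimulated GM-DC, and its difference of -0.25 had an interval of -0.48 to -0.02 (adjusted p = 0.0854). LPS had raised it by 1.94 ± 0.11. Il15ra, which presents interleukin 15 to lymphocytes, went past the dendritic cell level: it read 10.21, 10.13 and 10.09 in LPS-stimulated GM-MF, 8.17, 8.51 and 8.20 in unstimulated GM-MF and 8.81, 8.56 and 8.56 in unstimulated GM-DC (difference 1.50 ± 0.12, adjusted p = 5.92e-08). Ccl17, a chemokine for CCR4-bearing T cells, was the other member that was higher, by 0.79 ± 0.17, and its LPS response of 0.08 did not pass the test. Its partner Ccl22 was lower, at 10.08, 10.44 and 9.87 in LPS-stimulated GM-MF against 12.10, 11.93 and 12.05 in unstimulated GM-DC (difference -1.90 ± 0.23, adjusted p = 5.54e-06). Nr4a3, a nuclear receptor induced early on stimulation, rose by 2.58 in GM-MF with LPS, to a difference of -1.20 ± 0.31 from the dendritic cells.

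Another set of members stayed near the macrophage level. Stat4 read 4.42, 3.96 and 4.25 in LPS-stimulated GM-MF, 3.17, 3.20 and 3.43 in unstimulated GM-MF and 10.82, 10.86 and 10.91 in unstimulated GM-DC, a ratio of signals of 101-fold (difference -6.65 ± 0.13, adjusted p = 1.05e-13). LPS raised Stat4 by 0.94, but both macrophage groups stayed on average under the array medians. Tbc1d4, a Rab GTPase activator, differed by -4.90 ± 0.19, Clu (clusterin) by -4.70 ± 0.16 and Slco5a1, an organic anion transporter family member, by -3.91 ± 0.14, and their LPS responses of -0.36, 0.30 and 0.27 did not pass the test. Relb, the NF-kB subunit needed for dendritic cell development, read 7.19, 7.15 and 7.23 in LPS-stimulated GM-MF against 9.05, 9.0 and 9.37 in unstimulated GM-DC, and its response of -0.11 did not pass. Tmem123, a mucin-like membrane protein, was the member that LPS lowered, with a response of -0.33 away from GM-DC (adjusted p = 0.0173, and 0.0514 in the paired fit of the GM-MF arrays alone, where it did not pass).

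Replicate 2 of GM-MF was high for several of these genes, and it was so in both macrophage groups. Of the 28 members, 15 were highest in replicate 2 of LPS-stimulated GM-MF and 16 in replicate 2 of unstimulated GM-MF, where 36.8% and 43.3% of all genes were highest. Without replicate 2 of both groups, 2 members were higher and 23 lower with a median of -2.08, LPS raised 13 and lowered 1, and the difference of Ccr7 was -2.90 ± 0.15. The dendritic cell genes Stat4, Flt3 and P2ry10 averaged 4.21, 4.07 and 3.22 in LPS-stimulated GM-MF, under the array medians, and 10.86, 8.59 and 8.54 in unstimulated GM-DC. Other dendritic cell genes, among them Zbtb46, Ly75 and Ccr7, averaged above the array medians in LPS-stimulated GM-MF. The mean level of the dendritic cell lineage list was highest in replicate 2 of both macrophage groups. It was 6.09, 6.20 and 6.01 in LPS-stimulated GM-MF and 6.00, 6.12 and 5.93 in unstimulated GM-MF. That of the macrophage lineage list was lowest in replicate 2, at 8.94, 8.75 and 8.95 with LPS and 8.97, 8.85 and 9.07 without. Replicate 3 of unstimulated GM-DC had the highest mean level of its group for maturation (10.00, 9.98 and 10.18) and NF-kB genes (8.47, 8.42 and 8.76). It was also highest for costimulatory ligands (7.57, 7.54 and 7.83) and cytokines (5.37, 5.35 and 5.60). For interferon-stimulated genes (5.78, 5.96 and 5.71) and macrophage lineage (6.32, 6.38 and 6.27) it was lowest. The part of these replicates in the levels was not tested beyond this.

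**Figure D3:**
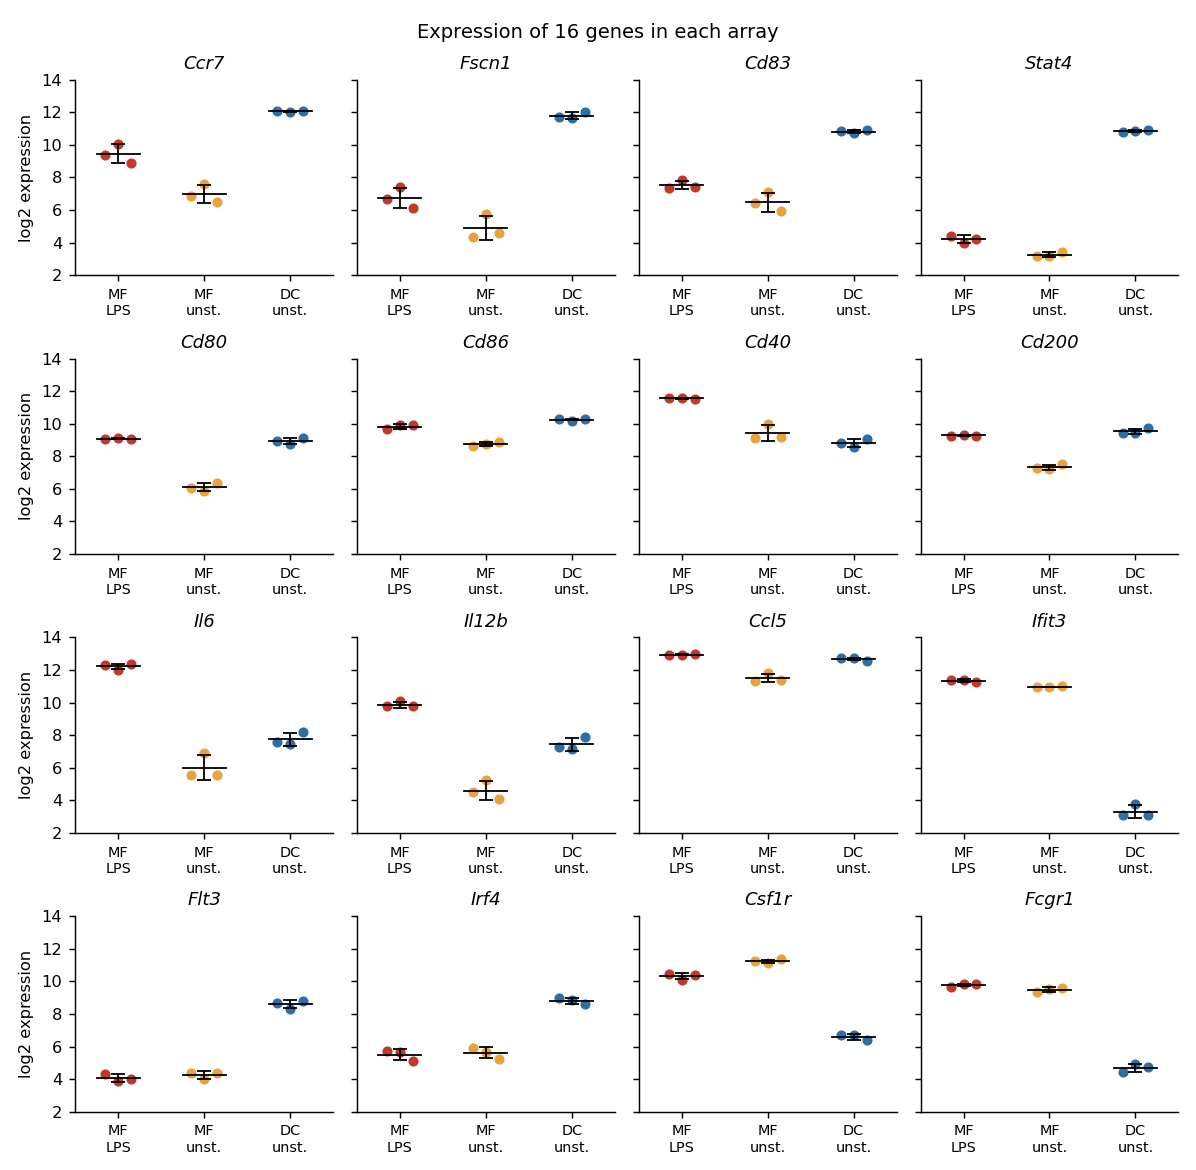
Log2 expression of 16 genes in each array of LPS-stimulated GM-MF, unstimulated GM-MF and unstimulated GM-DC, with the mean and SD of 3 arrays in black. Ccr7, Fscn1 and Cd83 rise with LPS and remain under GM-DC, Cd80 and Cd200 lie near the GM-DC values, Il6 and Il12b pass them, and Flt3 and Irf4 lie alike in both macrophage groups.

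Costimulatory and coinhibitory ligands, the signals that antigen-presenting cells give to T cells, came by mean level to that of the dendritic cells. Of 12 measured members, 4 were higher in LPS-stimulated GM-MF than in unstimulated GM-DC, 5 lower and 3 without a call, with a median difference of -0.02 against -0.88 for unstimulated GM-MF. Among all genes, 16.2% were higher and 22.5% lower. LPS raised 8 of the 12 in GM-MF and lowered 0, beside 6.54% raised and 10.8% lowered of all genes. At an unadjusted p under 0.05 in limma it raised 9 and lowered 0. The mean level of the list was 7.63 in LPS-stimulated GM-MF, 6.60 in unstimulated GM-MF and 7.64 in unstimulated GM-DC. The near equality of the means came from members on both sides, since 9 of 12 still passed the test, where 38.7% of all genes did.

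Cd80, a ligand of CD28 and CTLA4, read 9.05, 9.15 and 9.06 in LPS-stimulated GM-MF, 6.05, 5.88 and 6.37 in unstimulated GM-MF and 8.95, 8.78 and 9.15 in unstimulated GM-DC. LPS raised it by 2.99 ± 0.14, and the difference that remained was 0.13 with an interval of -0.17 to 0.43 (adjusted p = 0.55). The LPS-stimulated macrophages and the dendritic cells overlapped. With all probe sets of Cd80 averaged the difference was -0.23 (adjusted p = 0.279). Cd86, its paralog with the same receptors, read 9.66, 9.92 and 9.89 in LPS-stimulated GM-MF, 8.60, 8.74 and 8.86 in unstimulated GM-MF and 10.27, 10.20 and 10.27 in unstimulated GM-DC, a difference of -0.42 ± 0.11 (adjusted p = 0.00673) that lay within 2-fold.

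Cd40, the receptor through which helper T cells license antigen-presenting cells, went well past the dendritic cell level. It read 11.58, 11.55 and 11.54 in LPS-stimulated GM-MF, 9.14, 9.99 and 9.16 in unstimulated GM-MF and 8.80, 8.55 and 9.07 in unstimulated GM-DC, and was 6.74-fold higher in LPS-stimulated GM-MF (difference 2.75 ± 0.20, adjusted p = 1.65e-08). Cd274, which encodes the inhibitory ligand PD-L1, was higher by 1.60 ± 0.11, and its relative Pdcd1lg2 (PD-L2) was lower by a difference of -1.28 ± 0.17. Tnfsf4 (OX40 ligand) differed by -1.61 ± 0.17, Slamf1 by -1.34 ± 0.17 and Cd70, the ligand of CD27, by -1.29 ± 0.27. Of these, LPS raised Cd274, Tnfsf4 and Slamf1, while Cd70 (response 0.69) and Pdcd1lg2 (0.08) did not pass the test of the LPS response. In the paired fit of the GM-MF arrays alone, Cd70 passed (adjusted p = 0.0358).

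Antigen presentation genes lay on both sides of the dendritic cell level. Of 12 MHC class II members, 3 were higher, 4 lower and 5 did not pass, where 38.7% of all genes passed. Of the 12, 8 lay within 2-fold, where 78.7% of all genes did, and LPS raised 0 (0 also at an unadjusted p under 0.05) and lowered 2. H2-Aa, an alpha chain gene of MHC class II, read 12.03, 12.06 and 12.03 in LPS-stimulated GM-MF against 12.12, 12.10 and 12.10 in unstimulated GM-DC (difference -0.07, interval -0.26 to 0.12, adjusted p = 0.597). H2-Ab1, its beta chain partner, had a difference of 0.19 with an interval of 0.01 to 0.38 (adjusted p = 0.0894). Ciita, the master activator of class II transcription, read 5.24, 5.91 and 5.33 in LPS-stimulated GM-MF, 6.20, 6.45 and 5.87 in unstimulated GM-MF and 7.89, 7.62 and 7.67 in unstimulated GM-DC, and LPS thus moved it away from the dendritic cells (difference -2.23 ± 0.17, adjusted p = 4.02e-08). Marchf1, the ubiquitin ligase that removes class II and CD86 from the surface, read 6.95, 7.0 and 7.17 in LPS-stimulated GM-MF against 4.38, 4.45 and 4.53 in unstimulated GM-DC, 6.01-fold higher, with an LPS response of 0.12 that did not pass. H2-Eb2 and H2-Oa, the gene of a chain of the class II modulator H2-O, were lower by differences of -3.07 ± 0.15 and -1.66 ± 0.11.

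For MHC class I presentation, 7 of 14 members were higher, 0 lower (1 at an unadjusted p under 0.05) and 7 did not pass. Over all genes 16.2% were higher and 22.5% lower. Of the 14, 11 lay within 2-fold, near the 78.7% of all genes that did, and the median difference was 0.32. Tap1, a subunit of the peptide transporter, read 10.27, 10.24 and 10.16 in LPS-stimulated GM-MF against 8.77, 8.67 and 8.75 in unstimulated GM-DC (difference 1.49 ± 0.10, adjusted p = 9.8e-09). Psmb10, an immunoproteasome subunit, was higher by 1.21 ± 0.10 and Nlrc5, an activator of class I genes, by 1.17 ± 0.13. B2m, the invariant light chain, lay within 2-fold, with a difference of 0.11 (interval -0.07 to 0.29).

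Secreted inflammatory genes were among those that LPS took away from unstimulated GM-DC. Of 22 measured cytokines 18 were higher, 0 lower (0 also at an unadjusted p under 0.05) and 4 did not pass, with a median difference of 3.19 with LPS and 0.45 without. The shares of all genes were 16.2% higher and 22.5% lower. LPS raised 18 of the 22 and lowered 1, Tgfb1, beside 6.54% raised and 10.8% lowered of all genes. The root mean square difference of the list from GM-DC was 3.93 in LPS-stimulated GM-MF and 2.53 in unstimulated GM-MF.

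Il6 and Il12b, the gene of the p40 chain shared by interleukins 12 and 23, began below the dendritic cells and ended above them. Il6 read 12.28, 12.02 and 12.36 in LPS-stimulated GM-MF, 5.57, 6.88 and 5.57 in unstimulated GM-MF and 7.57, 7.48 and 8.20 in unstimulated GM-DC. It was 22.2-fold higher in LPS-stimulated GM-MF than in unstimulated GM-DC (difference 4.47 ± 0.29, adjusted p = 5.6e-09), after an LPS response of 6.21 ± 0.29. Il12b read 9.76, 10.07 and 9.78 in LPS-stimulated GM-MF, 4.50, 5.25 and 4.05 in unstimulated GM-MF and 7.27, 7.16 and 7.88 in unstimulated GM-DC (difference 2.44 ± 0.24, adjusted p = 7.88e-07). For both genes the 3 groups did not overlap. Il12a, the other chain of interleukin 12, was at 7.92, 7.90 and 8.04 in LPS-stimulated GM-MF, against 3.44, 3.48 and 3.76 in unstimulated GM-DC, a difference of 4.39 ± 0.21.

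Il1a and Il1b, the interleukin 1 genes, were high before LPS and rose further. Il1a read 11.57, 11.31 and 11.79 in LPS-stimulated GM-MF, 9.61, 9.63 and 9.61 in unstimulated GM-MF and 3.71, 4.41 and 4.01 in unstimulated GM-DC, a ratio of signals of 183-fold (difference 7.52 ± 0.20, adjusted p = 4.34e-13). Tnf, which encodes tumour necrosis factor, read 11.99, 11.72 and 11.98 in LPS-stimulated GM-MF, 10.78, 11.02 and 10.71 in unstimulated GM-MF and 5.30, 5.35 and 6.71 in unstimulated GM-DC (difference 6.11 ± 0.27). Il10, an anti-inflammatory cytokine, differed from the dendritic cells by 0.29 before LPS, which did not pass, and by 4.84 ± 0.21 after it, and Ifnb1 (interferon beta) stood 4.44 ± 0.22 above them. Cytokines that did not pass the test were Ebi3 (difference 0.06, interval -0.22 to 0.34), Osm (-0.18), Lif (-0.04) and Csf2 (0.10), of which Csf2 averaged under the array medians in all groups.

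Chemokines went the same way, with 17 of 21 higher, 1 lower (Ccl22) and 3 that did not pass. Their median difference was 3.76 with LPS and 1.71 without. Of all genes, 16.2% were higher and 22.5% lower. Ccl4, a chemokine that attracts monocytes and T cells, read 12.65, 12.67 and 12.82 in LPS-stimulated GM-MF, 9.93, 10.54 and 10.32 in unstimulated GM-MF and 6.28, 6.58 and 5.57 in unstimulated GM-DC (difference 6.57 ± 0.23, adjusted p = 6.01e-12). Ccl2, the monocyte chemoattractant, differed by 6.56 ± 0.20 and Cxcl10 by 6.44 ± 0.21. Ccl5, a chemokine that attracts T cells, was an exception: it read 12.91, 12.92 and 12.96 in LPS-stimulated GM-MF, 11.34, 11.82 and 11.37 in unstimulated GM-MF and 12.72, 12.71 and 12.58 in unstimulated GM-DC. LPS raised Ccl5 by 1.42 to within 2-fold of the dendritic cells (difference 0.26, interval 0.00 to 0.52, adjusted p = 0.111). Cxcl16 was within 2-fold in both macrophage groups, with a difference of -0.11 after LPS.

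All 28 interferon-stimulated genes were higher in LPS-stimulated GM-MF than in unstimulated GM-DC, with a median difference of 5.06, but 26 of them were already higher in unstimulated GM-MF, with a median of 4.08. Among all genes, 16.2% were higher with LPS and 16.2% without, and LPS raised 6.54% and lowered 10.8%. LPS raised 17 of the 28 and lowered 0, or 21 and 0 in the paired fit of the GM-MF arrays alone. At an unadjusted p under 0.05 in limma it raised 21 and lowered 0. Ifit3 had the largest positive difference of the genes named by rule. It read 11.38, 11.40 and 11.27 in LPS-stimulated GM-MF, 10.97, 10.98 and 10.99 in unstimulated GM-MF and 3.08, 3.74 and 3.09 in unstimulated GM-DC (difference 8.05 ± 0.18, adjusted p = 1.46e-13). Its LPS response of 0.37 did not pass the test (adjusted p = 0.195, and 0.0998 with the replicate block), but passed in a paired limma fit of the GM-MF arrays alone (adjusted p = 0.0338), with differences of 0.403, 0.427 and 0.283 within pairs. Iigp1, an interferon-inducible GTPase, had a larger response of 2.73 and ended 5.74 above the dendritic cells. Bst2 (tetherin), a membrane antiviral factor, was within 2-fold, at 11.74, 11.87 and 11.83 in LPS-stimulated GM-MF against 11.14, 11.22 and 11.49 in unstimulated GM-DC (difference 0.53 ± 0.12, adjusted p = 0.00178). Other genes by rule among the 12 with the largest positive differences were Saa3, an acute phase protein, at 7.42, Clec4e, the lectin receptor Mincle, at 6.96, and Serpinb2, a plasminogen activator inhibitor, at 6.94.

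Of 25 members of the NF-kB list, 14 were higher, 5 lower and 6 did not pass, with a median of 0.59. The shares of all genes were 16.2% higher and 22.5% lower, so lower members were about as frequent here. LPS raised 15 and lowered 0 (1 at an unadjusted p under 0.05, and 1 in the paired fit of the GM-MF arrays alone). In the fit without pairs it raised 6.54% and lowered 10.8% of all genes. Nos2, the inducible nitric oxide synthase, read 11.68, 11.75 and 11.50 in LPS-stimulated GM-MF, 6.15, 8.43 and 6.11 in unstimulated GM-MF and 4.13, 4.26 and 4.47 in unstimulated GM-DC (difference 7.35 ± 0.44, adjusted p = 2.09e-09). The second unstimulated array lay above the other two for this gene, and without replicate 2 of both macrophage groups the difference was 7.30 ± 0.19. Ptgs2 (cyclooxygenase 2) differed by 6.37, and Acod1, which makes itaconate, by 6.85 ± 0.20 with an LPS response of 0.23 that did not pass. The 5 lower members were the subunits Relb, Rel and Nfkb2, the inhibitor Nfkbib and the adaptor Traf1. Except for Relb, LPS raised each of these toward the dendritic cell level, and their remaining differences were -0.68 for Rel, -0.40 for Nfkb2, -0.52 for Nfkbib and -1.23 for Traf1. Nfkbia and Gadd45b were higher but within 2-fold, and Gadd45b did not pass after quantile normalization (difference -0.0042).

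Cholesterol synthesis genes fell with LPS to below the dendritic cell level. Of 18 members of the list, 15 stood lower in LPS-stimulated GM-MF than in unstimulated GM-DC, 2 higher and 1 without a call, with a median of -0.98, while unstimulated GM-MF had 4 higher and 5 lower with a median of 0.11. The shares of all genes were 22.5% lower with LPS and 18.0% without, and 16.2% higher in both comparisons. Within GM-MF, LPS lowered 14 and raised 1, beside 10.8% lowered and 6.54% raised of all genes. Sqle, squalene epoxidase, read 6.91, 6.91 and 6.85 in LPS-stimulated GM-MF, 8.49, 8.32 and 8.42 in unstimulated GM-MF and 8.84, 8.68 and 9.35 in unstimulated GM-DC (difference -2.07 ± 0.17, adjusted p = 8.92e-08). Hmgcs1, the synthase before HMG-CoA reductase, averaged 7.75 in LPS-stimulated GM-MF, 9.13 in unstimulated GM-MF and 9.15 in unstimulated GM-DC. Ch25h, which makes 25-hydroxycholesterol and was the member that LPS raised, read 11.18, 11.22 and 11.47 in LPS-stimulated GM-MF, 8.93, 9.21 and 9.17 in unstimulated GM-MF and 4.85, 4.61 and 4.51 in unstimulated GM-DC (difference 6.63 ± 0.19). Insig1, which retains the SREBP machinery in the endoplasmic reticulum, was higher by 0.47 ± 0.14, and its LPS response of -0.30 did not pass.

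**Figure D4:**
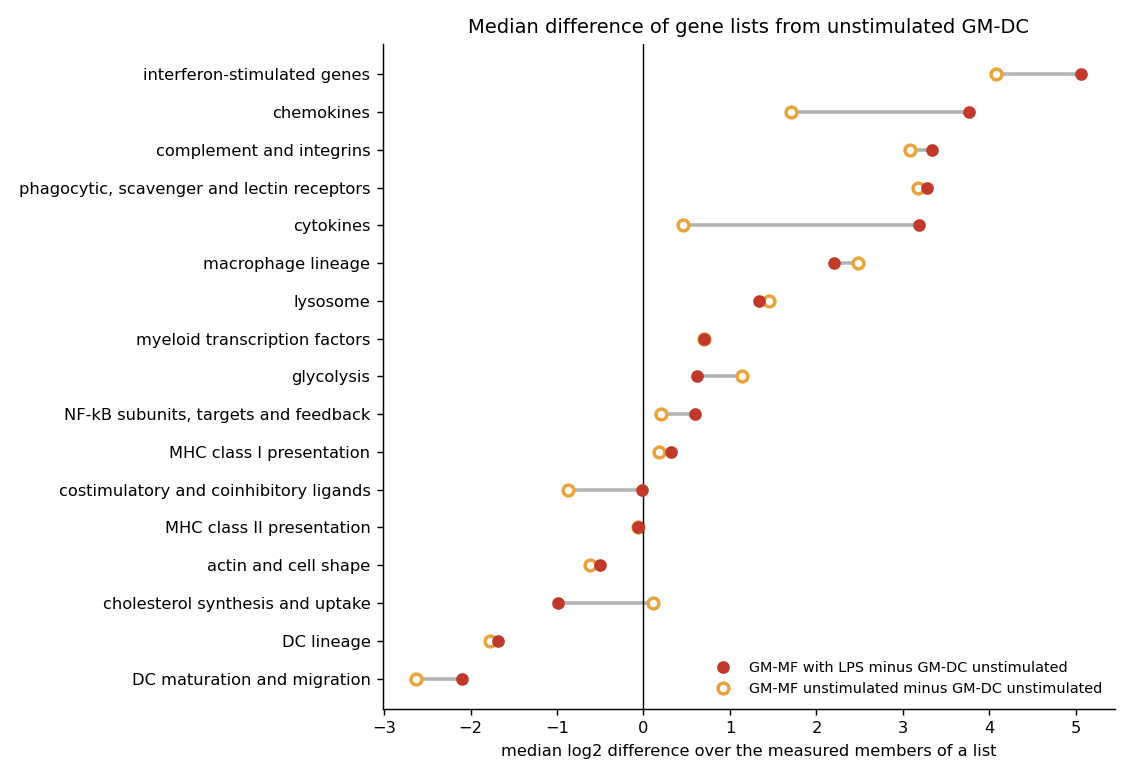
Median log2 difference from unstimulated GM-DC over the measured members of each gene list, for LPS-stimulated GM-MF (filled) and unstimulated GM-MF (open). The markers lie close together for macrophage lineage (2.21 and 2.48) and dendritic cell lineage (-1.68 and -1.77), and apart for cytokines (3.19 and 0.45) and cholesterol synthesis (-0.98 and 0.11).

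Genes of dendritic cell identity kept a median difference near that before LPS, with members moving both ways. Of 31 measured members of the lineage list, 5 were higher in LPS-stimulated GM-MF, 22 lower and 4 did not pass, with a median of -1.68 with LPS and -1.77 without. Among all genes, 16.2% were higher and 22.5% lower. LPS raised 8 and lowered 4 members, where it raised 6.54% and lowered 10.8% of all genes. The difference of Flt3 was -4.53 ± 0.15, and its LPS response of -0.19 did not pass. Spib, an ETS family transcription factor, read 4.23, 4.47 and 3.78 in LPS-stimulated GM-MF, 4.50, 4.48 and 4.21 in unstimulated GM-MF and 8.90, 8.56 and 9.32 in unstimulated GM-DC (difference -4.77 ± 0.23, adjusted p = 1.74e-10). P2ry10, a G protein-coupled receptor of the purinergic family, differed by -5.32 ± 0.23. The largest LPS rise among members lower than in GM-DC was that of Hmgn3, a nucleosome binding protein, at 1.42, and it remained 2.76 below on the log2 scale. Higher members were Fgl2, a fibrinogen-like secreted protein (1.90 ± 0.22), Itgb7 (1.41 ± 0.11), Jaml, Slamf7 and Snx22. Slamf7 and Snx22 lay within 2-fold.

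Among 32 myeloid transcription factors 23 were higher, 8 lower and 1 did not pass, beside 16.2% higher and 22.5% lower of all genes. Their median was 0.70 both with and without LPS, yet the members moved both ways. LPS raised 13 and lowered 11 of the 32, where it raised 6.54% and lowered 10.8% of all genes. Irf4, an interferon regulatory factor of monocyte-derived dendritic cells, read 5.72, 5.70 and 5.11 in LPS-stimulated GM-MF, 5.94, 5.64 and 5.26 in unstimulated GM-MF and 8.96, 8.85 and 8.63 in unstimulated GM-DC (difference -3.30 ± 0.21, adjusted p = 5.78e-09). Irf8, a factor of conventional dendritic cells and monocytes, did move: it read 9.50, 9.75 and 9.47 in LPS-stimulated GM-MF, 7.85, 8.02 and 8.0 in unstimulated GM-MF and 10.63, 10.57 and 10.93 in unstimulated GM-DC, leaving a difference of -1.14 ± 0.12 after an LPS response of 1.62. Batf3, needed for cross-presenting dendritic cells, moved away, by an LPS response of -0.68 to a difference of -2.88 ± 0.14. Its relative Batf was higher by 3.30 ± 0.23 after an LPS response of 2.28, and Bhlhe41, a repressor of the clock gene family, was higher by 4.06 ± 0.24.

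Macrophage lineage genes mostly stayed above the dendritic cells after LPS, though some members moved. Of 38 lineage members 36 were higher, 1 lower (Glul, glutamine synthetase, -0.47 ± 0.14) and 1 did not pass, with a median of 2.21 with LPS and 2.48 without. The shares of all genes were 16.2% higher and 22.5% lower. LPS raised 4 and lowered 7 members, or 6 and 8 in the paired fit of the GM-MF arrays alone. It raised 6.54% and lowered 10.8% of all genes in the fit without pairs. Fcgr1, the high affinity IgG receptor, read 9.68, 9.84 and 9.82 in LPS-stimulated GM-MF against 4.42, 4.91 and 4.76 in unstimulated GM-DC (difference 5.08 ± 0.13, adjusted p = 3.41e-13). Csf1r was lowered by LPS (response -0.93 ± 0.12) and remained 13.1-fold higher than in the dendritic cells. Mertk, a receptor for apoptotic cells, was raised, at 9.05, 8.98 and 9.01 in LPS-stimulated GM-MF, 7.93, 8.0 and 8.19 in unstimulated GM-MF and 4.84, 4.46 and 4.70 in unstimulated GM-DC. Tlr7, a sensor of single-stranded RNA, had a difference of 6.09 ± 0.18. Of the other members that LPS lowered, Stab1, a scavenger receptor, changed by -1.56 and Cebpa, a myeloid transcription factor, by -1.24.

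Uptake and digestion genes, which mature dendritic cells carry less of, stayed high. Among all genes, 16.2% were higher and 22.5% lower. Of 28 phagocytic, scavenger and lectin receptors 23 were higher, 1 lower and 4 did not pass, with a median of 3.28 with LPS and 3.17 without. Msr1, a scavenger receptor, averaged 11.01 ± 0.125 in LPS-stimulated GM-MF and 5.49 ± 0.108 in unstimulated GM-DC (SD, n = 3 each), a difference of 5.53 ± 0.12 (adjusted p = 1.53e-13). The lower member was Ly75 (DEC-205), an endocytic receptor of dendritic cells, at 8.21, 8.23 and 7.80 in LPS-stimulated GM-MF, 7.54, 7.36 and 7.18 in unstimulated GM-MF and 9.78, 9.68 and 9.83 in unstimulated GM-DC. Of 15 complement and integrin genes 13 were higher and 2 lower (median 3.33), with C5ar1, the C5a receptor, at 4.70 ± 0.19 and Itga4, an integrin alpha chain, at -1.24 ± 0.11. Of 22 lysosomal genes 19 were higher, 1 lower and 2 did not pass (median 1.34). Ctsk (cathepsin K) differed by 5.03 ± 0.19, and Tfeb, a master regulator of lysosomal genes, by -0.39 ± 0.10 after an LPS response of -1.21.

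Chemokine receptors showed moves in both directions. Of 14 members 4 were higher, 2 lower and 8 did not pass, beside 16.2% higher and 22.5% lower of all genes. LPS raised 3 and lowered 3, where it raised 6.54% and lowered 10.8% of all genes. Cxcr4, the receptor for CXCL12, was high in the dendritic cells beside Ccr7, yet LPS moved it the other way: it read 6.21, 6.35 and 6.28 in LPS-stimulated GM-MF, 8.96, 9.11 and 8.98 in unstimulated GM-MF and 11.05, 11.07 and 11.17 in unstimulated GM-DC (difference -4.82 ± 0.12, adjusted p = 2.79e-13). Ccr2, the receptor of inflammatory monocytes, was lowered by LPS (response -2.06) and stayed 2.83 ± 0.13 above the dendritic cells. Ccr1 was higher by 4.70 ± 0.19 with a response of -0.01, and Ccrl2, an atypical receptor for chemerin, by 3.25 ± 0.16.

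Genes chosen by the size of their move with LPS relative to the dendritic cells are given as descriptions. Besides Cd80, and leaving out clone and model names, the genes that started at least 4-fold below unstimulated GM-DC, rose at least 4-fold with LPS and came within 2-fold were Fnbp1l, a membrane-bending adaptor (response 2.79, remaining difference -0.21), Pla1a, a phospholipase (2.64 and 0.11), Rnf180, a ubiquitin ligase (2.34 and -0.61), and Spsb1, a ubiquitin ligase adaptor (2.01 and -0.61). In the mirror direction Kcnj2, a potassium channel, Cd300lb, an activating immunoglobulin-like receptor, and Acss2, an acetyl-CoA synthetase, fell to near the dendritic cell level. Acss2 read 5.96, 5.69 and 5.42 in LPS-stimulated GM-MF, 7.89, 7.69 and 7.53 in unstimulated GM-MF and 5.71, 5.70 and 5.56 in unstimulated GM-DC. Inpp5d, the SHIP1 phosphatase, Slc43a2, an amino acid transporter, and Otulinl fell past it, to differences of -1.33, -1.23 and -1.08. Serpinb1a, a neutrophil protease inhibitor, and Pdzk1ip1 rose past it, to 1.80 and 1.02.

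Large gaps that LPS did not close included Ramp3, a receptor activity-modifying protein, which read 4.86, 5.70 and 5.86 in LPS-stimulated GM-MF, 5.22, 5.01 and 5.22 in unstimulated GM-MF and 11.47, 11.45 and 11.72 in unstimulated GM-DC (difference -6.08 ± 0.21). Ceacam15 (-6.04), Strip2 (-5.78), Satb1, a chromatin organiser (-5.17), and Cytip, which regulates integrin adhesion in dendritic cells (-5.16), belonged to the same set, and their LPS responses did not pass the test. Vdr, the vitamin D receptor, moved away from the dendritic cells: it read 3.92, 4.15 and 4.16 in LPS-stimulated GM-MF, 5.22, 5.55 and 5.19 in unstimulated GM-MF and 9.05, 9.12 and 9.16 in unstimulated GM-DC. Zfp36l1, an mRNA decay factor, did so by a response of -2.26 to a difference of -4.45, and Gpr65, an acid-sensing receptor, by -2.64 to -4.08.

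Actin and cell shape genes stood lower, 12 of 21 against 4 higher and 5 that did not pass, with a median of -0.50. Over all genes 22.5% were lower and 16.2% higher. Scin, the actin-severing scinderin, differed by -5.86 ± 0.16 and Swap70, a signalling protein of membrane ruffles, by -2.69, while Actb lay within 2-fold (difference -0.07). Glycolysis genes were higher at 8 of 13 members and lower at 2, with a median of 0.62, led by the hexokinases Hk2 (3.49 ± 0.28) and Hk3 (3.22 ± 0.17). Pfkfb3, which makes an activator of phosphofructokinase, differed by -1.0 ± 0.24 although LPS had raised it by 1.49. Of 27 cell cycle genes 7 were higher and 7 lower, with a median of 0.15, beside 16.2% higher and 22.5% lower of all genes. Mki67 was higher by 2.89 ± 0.15, and the replication helicase genes Mcm6 and Mcm3 were lower, with differences of -2.21 ± 0.15 and -1.65 ± 0.16.

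Lists of markers for further cell types of marrow cultures were read beside these results. Over all genes 16.2% were higher and 22.5% lower in LPS-stimulated GM-MF than in unstimulated GM-DC. Of 5 monocyte markers 4 were higher in LPS-stimulated GM-MF, with a mean level of the list of 7.81 to 8.13 in its arrays, 7.92 to 8.14 in unstimulated GM-MF and 5.21 to 5.59 in unstimulated GM-DC. Of 15 neutrophil and granule markers 6 were higher and 2 lower, at 6.11 to 6.33 in LPS-stimulated GM-MF, 5.75 to 5.86 in unstimulated GM-MF and 5.24 to 5.42 in unstimulated GM-DC. Lcn2 and Mmp8 led the higher ones, by 5.20 ± 0.13 and 5.09 ± 0.31, while Ly6g and Cxcr2 averaged 4.34 and 2.92 in LPS-stimulated GM-MF, under the array medians. Of 10 markers of conventional dendritic cells type 1, 4 were higher and 4 lower, at 6.23 to 6.33 in LPS-stimulated GM-MF, 6.14 to 6.26 in unstimulated GM-MF and 5.99 to 6.10 in unstimulated GM-DC, with Xcr1 at 3.36 in both groups, and of 8 plasmacytoid dendritic cell markers 4 were higher and 2 lower, with Siglech at 4.06 in both groups. Of 8 mast cell and basophil markers 1 was higher (Hdc, 3.85 ± 0.17) and 1 lower (Kit, -2.07 ± 0.21), with Cpa3, Ms4a2 and Fcer1a all under 3 on average in both groups. The numbers higher and lower were 0 and 1 of 7 B cell markers, 1 and 2 of 8 T and NK cell markers, 2 and 0 of 8 stromal markers and 0 and 0 of 3 erythroid markers. At an unadjusted p under 0.05 in limma these were 0 and 3, 2 and 2, 2 and 0, and 0 and 0. The part of such cells in the differences was not tested.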

How the data were processed

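Per the labels, total RNA of each sample was hybridised to 1 array. The authors deposited log2 expression values; per the submitters' processing notes the tools were RMA and R 3.0.2. The log base, not stated, was read as 2 because values ran between 1.18 and 13.7. Of 35556 probe sets, 21789 had 1 gene symbol in the platform annotation, and of several probe sets of a gene (999 genes) the one with the highest mean was kept. Group means of all 12 arrays were fitted with limma 3.58.1 in R 4.3.3 (lmFit, contrasts.fit, eBayes without trend, 8 residual degrees of freedom), two-sided, with Benjamini-Hochberg adjustment over 19938 genes. The fit was tested on simulated data. Intervals are at 95%.

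The members and the 28 gene lists (493 measured entries) were chosen with earlier results of these data known. Genes were named by rule. The rule took the 12 largest differences each way with no overlap of arrays, leaving out clone, model and Riken names. It also took the largest and the highest within 2-fold per list, genes brought to, past or away from the GM-DC level, genes LPS did not move, and a panel. Other list members that the text names were chosen after their values were seen. Deviations of same-numbered arrays from their group means correlated at 0.0234, -0.0466 and 0.0241 between LPS-stimulated GM-MF and unstimulated GM-DC, so these numbers do not pair. Between the GM-MF groups they correlated at 0.257, 0.188 and 0.104, and arrays of unlike numbers at -0.216 to 0.0254. The numbers were therefore taken to pair the GM-MF arrays. The labels give only the numbers, and what same-numbered arrays share was not tested. LPS responses and their counts by list are given without the block. A named response is also given from the paired fit of the GM-MF arrays alone where its call changed. Beyond the counts given above, that fit raised 9 and lowered 0 costimulatory ligands and raised 7 and lowered 4 dendritic cell lineage genes. It raised 14 and lowered 10 myeloid transcription factors, and raised 1 and lowered 13 cholesterol synthesis genes. Promoter windows came from RefSeq (GRCm38.p6) and were found for 15614 genes. The precision of the arrays is limited by their number, 3 per group.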

Additional observations from a re-analysis of the deposited data

How the results depend on the processing

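Across 21 alternative settings and 1 added after seeing the data (without replicate 2 of both GM-MF groups), 142 of the 187 genes named by rule kept their direction and side of the threshold wherever they were tested, and 45 changed in at least 1. The filters on low values tested 171 (mean above the table median) and 176 (at least 3 arrays above it) of the 187. List medians also varied, over 17 settings between -2.21 and -1.98 for dendritic cell maturation and -2.21 and -1.51 for dendritic cell lineage. The ranges were 2.14 to 2.34 for macrophage lineage, 3.08 to 3.98 for cytokines and -1.06 to -0.80 for cholesterol synthesis. Among lists whose range crossed 0 were costimulatory ligands (-0.10 to 0.10) and chemokine receptors (-0.10 to 1.40). Leaving out 1 array at a time gave 7078 to 7866 genes called between LPS-stimulated GM-MF and unstimulated GM-DC, 2934 to 3301 higher, 4085 to 4565 lower, 2880 to 2989 at 2-fold or more and 15367 to 15725 within 2-fold. It gave 6197 to 6940 calls for unstimulated GM-MF against unstimulated GM-DC, 2717 to 3623 for the LPS response, and a gap in distance of 0.0743 to 0.0952. With the replicate block the counts were 7838, 7011 and 3648, within 1.5 times the counts without it, and 3648 for the LPS response became 3503 in a paired fit of the GM-MF arrays alone, added after seeing the data. Under the filter on the mean and then that on 3 arrays, which test fewer genes, 6373 and 6769 genes lay within 2-fold, the gap in distance was 0.1143 and 0.1142, and the median difference of all genes was -0.12 and -0.11. By the median absolute difference the gap was 0.018. The share of calls that were higher was 41.8%, against 50.7% after cyclic loess and 46.3% after median centring. Of the 187 genes, 16 turned sign in at least 1 setting, and only Gadd45b, Klf6 and Hk1 among them had passed the test. Under quantile normalization these were Gadd45b (-0.0042), Klf6 (-0.0064), Cd80 (-0.0042), Psmb9 (-0.2328), Marcksl1 (-0.1904), Ebi3 (-0.0585), Vim (-0.0581), Aldoa (-0.0559), H2-Ab1 (-0.0258), Cx3cr1 (0.0774) and Cadm1 (0.0638). After cyclic loess they were Cx3cr1 (0.1427), Cadm1 (0.1264), Prss34 (0.0472), Osm (0.0282) and Psmb9 (-0.0088), after median centring Cadm1 (0.0240), Cx3cr1 (0.0149) and Epor (0.0079), and with probe sets averaged Hk1 (0.3163) and Cd80 (-0.2273). Leaving out arrays gave ranges across 0 for Psmb9 (-0.0161 to 0.0714), Cx3cr1 (-0.1351 to 0.0932), Cadm1 (-0.0861 to 0.0306), Prss34 (-0.1413 to 0.0552), Epor (-0.1622 to 0.1032) and Acss2 (-0.1036 to 0.1646). The cause was not tested. Signal over background was not available and limits what low values show.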
